A study of Saccharomyces cerevisiae with 39 samples.

Results

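A single substitution near the start of Pho92, tryptophan 5 to alanine (W5A), was compared with the intact protein. The libraries were chosen by title: 3 of the strain W5A and 3 of the strain CUP1_WT, 6 of the 39 libraries in the series, with replicate numbers 1 to 3 in both. The strain W5A carried an HA-tagged PHO92 with the substitution under the copper-induced CUP1 promoter at trp1, and the strain CUP1_WT carried the same construct with the intact coding sequence. Both were MATa/alpha diploids whose shared markers were ura3, lys2, ho::LYS2 and hisG disruptions of trp1 (trp1::hisG), his3 (his3::hisG) and leu2 (leu2::hisG), and in both the endogenous PHO92 was replaced by a hygromycin marker (hyg::pho92), so the construct is the only PHO92 that the genotype lists. Strains set beside them, with 3 libraries each, were W5A_W18A and W18A, built in the same way with both tryptophans or the second alone changed, WT, with endogenous PHO92 and no construct, and pho92_null, with the gene replaced (pho92::HYG) and no construct. Every culture was moved from acetate-containing rich medium to sporulation medium (SPO), and copper sulphate (50 µM) was added 3 h later. The labels do not give the time of collection, and they speak of an arrest in early meiosis while the genotypes list no arrest allele. Poly(A) RNA was sequenced as strand-specific paired-end libraries. Nothing in the labels says that replicate libraries came from separate cultures, so p-values measure the spread between these libraries.

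Pho92 is the YTH-domain protein of budding yeast. Its YTH domain binds N6-methyladenosine (m6A), a mark that the Ime4 methyltransferase complex places on mRNA during early meiosis, and the region before the domain is intrinsically disordered. Marked transcripts are bound and turned over with the help of the CCR4-NOT deadenylase. In sporulation medium, Ime1 turns on the early meiotic genes, and at the exit from prophase the transcription factor Ndt80 turns on the middle genes, which drive the divisions and spore formation. Genes of ribosomes and of their assembly are repressed in starved and sporulating cells.

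The substituted codon lies in the first 20 codons of PHO92 (YDR374C), which is read from the minus strand. They are shown because they place the substitution, with the tryptophan codons 5 and 18 in capitals (RefSeq assembly R64, chrIV:1224335-1224394, 307 codons in 1 exon with the stop codon).
PHO92 codons 1 to 20: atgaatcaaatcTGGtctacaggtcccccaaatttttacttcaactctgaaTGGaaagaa
W5A changes the first of these codons to one for alanine, and the strains W18A and W5A_W18A, used below as a second background, change the second or both. The codon used for alanine is not given in the sources used here.

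The PHO92 transcript itself had 15550, 14440 and 14380 CPM in W5A, against 8197, 9805 and 11230 CPM in CUP1_WT, where CPM is counts per 1000000 scaled by trimmed mean of M-values. Every W5A library was thus above every CUP1_WT library, with means of 14790 ± 659 CPM in W5A and 9746 ± 1519 CPM in CUP1_WT (SD, n = 3 each). In the limma fit across all 39 libraries the difference did not pass the threshold (log2 0.61, SE 0.44, adjusted p = 0.275), and in a fit of the 6 libraries alone it did (log2 0.62, adjusted p = 0.0282). When that fit of 6 was blocked by replicate number, the difference did not pass (log2 0.62, adjusted p = 0.0569). The pho92_null strain, which lacks the gene, had 0.941, 2.37 and 0.0919 CPM. The spread of these near-empty libraries on the log2 scale enters the SE of PHO92 in the fit of all 39 libraries, and not in the fit of 6. CUP1-1, the metallothionein gene whose promoter drives the construct, had 2634, 2193 and 1640 CPM in W5A, against 1154, 1404 and 1581 CPM in CUP1_WT (log2 0.63, SE 0.19, adjusted p = 0.0115). The call for CUP1-1 was lost without W5A replicate 1 or CUP1_WT replicate 1, and reads of CUP1-1 cannot be told apart from those of its copy CUP1-2. Transcript level says nothing of the amount of protein, which was not measured, and the part of the PHO92 difference in the results was not tested.

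Of 5840 genes tested, 2277 were called at an adjusted p under 0.05 (39% of those tested), 1218 higher in W5A (20.9%) and 1059 lower (18.1%). Without any test, every W5A library was above every CUP1_WT library for 25.2% of genes and below for 23.1%, 48.3% in all. At least 2-fold differences were called for 365 genes higher and 396 lower in W5A, and at least 4-fold differences for 109 higher and 163 lower. The falls reached further: 86 genes were at least 8-fold lower in W5A and 3 at least 8-fold higher. Genes of cytosolic ribosomal proteins made up 87 of the 109 genes that rose at least 4-fold, and middle or late meiosis genes made up 47 of the 163 that fell as far. In a fit blocked by replicate number, 2767 genes were called (47.4%), 25.1% of those tested higher and 22.3% lower. Among genes called in both fits that reached a mean of 50 CPM in either strain and moved the same way in each of the 3 pairs, those with the greatest rises included RPL1B, RPL21A, RPS7A, RPL37A, RPS10A, RPS3, RPS8B, RPS31 and RPS1B, all of the cytosolic ribosome. The 10 with the greatest falls were SRD1, SPR2, SMA2, YPR078C, YKR015C, RRT12, YNL019C, SPS4, YFL040W and SPS2, and the call for SRD1 was lost without CUP1_WT replicate 1. The median log2 difference over all genes tested was 0.03. The 6 libraries held 19096915 to 23591890 counts, and replicate libraries of each strain differed by more than sampling noise. CUP1_WT replicate 1 weighed most on the number of calls, with 1251 genes called without it, 647 higher and 604 lower, and without CUP1_WT replicate 2 the lower calls were the more numerous, 836 against 726 higher. Of markers that check the labels, the early meiotic genes DMC1 and HOP1 were present at 2454 and 1374 CPM on average in W5A and at 2797 and 1586 CPM in CUP1_WT, and the haploid pheromone gene MFA1 averaged 0.879 CPM in W5A and 0.925 CPM in CUP1_WT. MFA1 does not stand for all haploid-specific and mating genes. Of 19 tested, 6 were lower in W5A, among them STE18 (log2 -3.56) and FAR1 (log2 -1.46), 1 was higher and 12 were not called. RNA came from whole cultures, so fewer cells in a stage and less RNA per cell cannot be told apart, and a CPM is a share of a library, not an amount per cell.

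**Figure D1:**
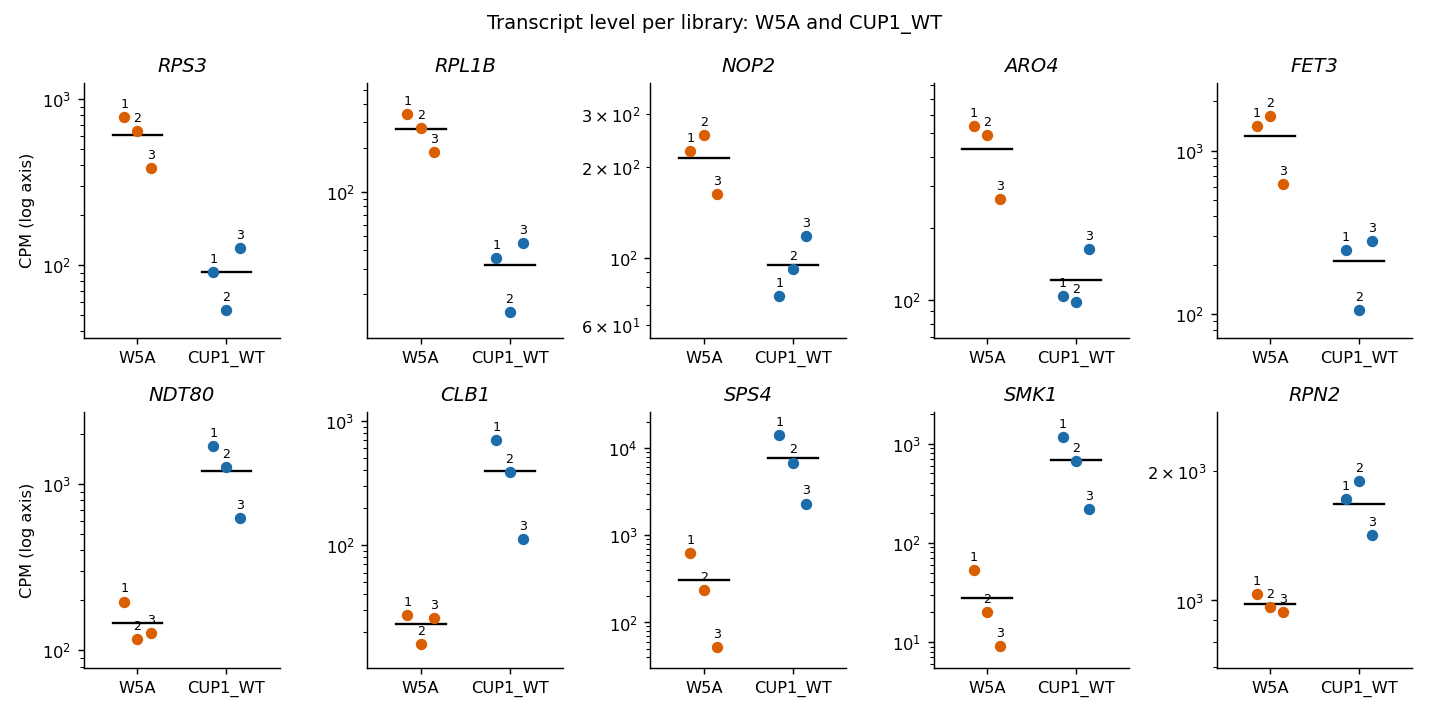
Level of 10 genes in each library of W5A (orange, left) and CUP1_WT (blue, right), in CPM on a log axis with its own range for each gene. Points are libraries numbered by replicate and the bar is the mean of 3. RPS3, RPL1B, NOP2, ARO4 and FET3 were higher in every W5A library, and NDT80, CLB1, SPS4, SMK1 and RPN2 were lower in every W5A library.

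By the median, the middle meiosis genes were the lowest of the 35 gene lists in W5A. Of 54 tested, 52 fell in W5A and none rose, against 18.1% of all genes lower and 20.9% higher. The median log2 difference was -3.77, against 0.03 over all genes. SPS4, a sporulation-specific gene, had 632, 236 and 51.8 CPM in W5A, against 14010, 6838 and 2315 CPM in CUP1_WT (log2 -4.93, SE 1.32, adjusted p = 0.00482). SMA2, needed for assembly of the spore membrane, had 11.5, 4.95 and 1.17 CPM in W5A, against 463, 207 and 56.7 CPM in CUP1_WT (log2 -5.39, SE 1.24, adjusted p = 0.00158). The ranges of the strains did not overlap for either gene, and in both strains replicate 1 was the highest and replicate 3 the lowest. Among genes of the divisions, CDC5, the polo kinase, had 158, 127 and 82.8 CPM in W5A, against 1376, 1416 and 529 CPM in CUP1_WT (log2 -3.09, SE 0.63, adjusted p = 6.30e-04), and CLB1, a B-type cyclin, had 27.3, 16.1 and 26.0 CPM in W5A, against 697, 384 and 112 CPM in CUP1_WT (log2 -3.78, SE 0.85, adjusted p = 0.00133). SPO21, a component of the meiotic spindle pole body from which the spore membrane grows, had 56.9, 33.8 and 21.3 CPM in W5A, against 978, 754 and 244 CPM in CUP1_WT (log2 -4.03, SE 0.76, adjusted p = 3.49e-04). SMK1, the mitogen-activated kinase of spore wall formation, fell (log2 -4.69), as did SPS1, a kinase of the same process (log2 -4.76). The genes of the list that were not called were SHC1 (log2 -0.17) and SPO1 (log2 -0.63). Middle genes together took 0.946, 0.662 and 0.660% of the counts of the W5A libraries, against 8.39, 5.70 and 2.60% in CUP1_WT. Without CUP1_WT replicate 1, the library richest in these transcripts, 43 of the 54 were still called lower.

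NDT80, the transcription factor of these genes, was itself lower, with 197, 117 and 127 CPM in W5A, against 1689, 1270 and 621 CPM in CUP1_WT (log2 -2.94, SE 0.63, adjusted p = 9.41e-04). Every W5A library lay below every CUP1_WT library. SUM1, the repressor that occupies the same promoter element before Ndt80, did not pass the test, with 64.9, 79.2 and 93.8 CPM in W5A, against 77.0, 85.2 and 84.8 CPM in CUP1_WT (log2 -0.07). AMA1, an activator of the anaphase-promoting complex in meiosis, fell (log2 -1.19), and its call was lost without W5A replicate 2 or CUP1_WT replicate 1. These genes were picked after their values were seen.

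The core of the element that Ndt80 and Sum1 bind, CACAAAA, was searched on both strands in the 250 bases before the start codon of each gene in R64. It was present for 28 of 54 middle genes (51.9%), for 53.1% of genes at least 4-fold lower in W5A, for 18.7% of all genes called lower, for 2.5% of genes called higher and for 7.07% of all 5518 genes with such a sequence. Of the 10 genes named for the greatest falls, 8 held it. Matches of 4 of these genes and of NDT80 are printed with 10 bases on either side, read on the strand on which the motif reads CACAAAA, with the motif in capitals, so that the flanks can be compared.
SMA2: cctaagatgaCACAAAAaaatgttctc
SPS2: taagtaatgcCACAAAAtatttttttt
SPS4: tgacgcgcgcCACAAAAacgtatcatt
RRT12: aaaaaaacgaCACAAAAtattgttctc
NDT80: ggccgtatgaCACAAAAgagtagaaaa
NDT80: aaataggtgaCACAAAAtggagggcaa
They lie at chrXIII:141681-141707 (plus strand), chrIV:1485318-1485344 (plus), chrXV:903048-903074 (minus), chrIII:209713-209739 (minus), chrVIII:356332-356358 (plus) and chrVIII:356465-356491 (minus), which is 157, 24, 183, 112, 212 and 79 bases before the start codons. A match is a description of the letters, and binding was not measured here.

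Most members of the late spore wall list were also lower, but not all of them belong to stages after the middle genes. Of 13 tested, 11 fell and none rose (median log2 -2.36), against 18.1% of all genes lower. These falls include IME2, which acts after Ime1 at meiotic entry, and CTT1, a catalase gene. They also include CDA1, CDA2 and IRC18, which are counted in the middle list too. DTR1, the dityrosine transporter of the spore membrane, had 139, 63.9 and 41.3 CPM in W5A, against 2914, 1674 and 518 CPM in CUP1_WT (log2 -4.25, SE 1.00, adjusted p = 0.00194). RRT12, a subtilisin-family protease of the spore wall, fell (log2 -5.15), as did CDA1, a chitin deacetylase (log2 -3.75), and DIT2, an enzyme of dityrosine synthesis (log2 -2.36). Not called were DIT1 (log2 -0.50, adjusted p = 0.377) and SPS100 (log2 0.24, adjusted p = 0.329), so the late list did not move as a whole. Of 17 septin and cytokinesis genes, 9 fell and 1 rose, and the falls were greatest for the sporulation septins SPR3 (log2 -4.27) and SPR28 (log2 -3.73). CDC3, a septin of both growing and sporulating cells, had 368, 343 and 322 CPM in W5A, against 2778, 2074 and 846 CPM in CUP1_WT (log2 -2.30, SE 0.49, adjusted p = 9.35e-04), and the formin gene BNR1 fell to a similar extent (log2 -2.40). The single septin-list rise, CYK3 (log2 0.52), was lost without W5A replicate 2 or CUP1_WT replicate 1.

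Among 42 kinetochore and spindle genes, 16 fell and 2 rose (median log2 -0.29), against 18.1% of all genes lower and 20.9% higher. With any library left out, 0 or 1 rose. The number called lower was 8 without CUP1_WT replicate 1 and 10 without CUP1_WT replicate 2, and 8 when the 6 libraries were fitted alone. STU2, a microtubule polymerase, had 90.8, 90.6 and 93.5 CPM in W5A, against 982, 618 and 208 CPM in CUP1_WT (log2 -2.45, SE 0.54, adjusted p = 0.00122), and the inner kinetochore gene OKP1 fell by 1.07 on the log2 scale. Among 13 genes of cohesin and its control, 3 fell and 3 rose, both near the shares of all genes (18.1% and 20.9%). SGO1, the shugoshin that protects centromeric cohesin, had 102, 95.9 and 91.1 CPM in W5A, against 540.0, 493 and 207 CPM in CUP1_WT (log2 -1.98, SE 0.42, adjusted p = 9.29e-04), and PDS1, the securin, fell (log2 -1.60). MCD1, the mitotic kleisin, was higher in W5A at a low level, with 10.4, 13.8 and 11.1 CPM in W5A, against 5.93, 6.02 and 8.64 CPM in CUP1_WT (log2 0.78, adjusted p = 7.68e-04).

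Of 44 recombination and synapsis genes, 7 fell and none rose (median log2 -0.47), a count near the 18.1% of all genes called lower. It depended on the fit, since 23 were called lower when the 6 libraries were fitted alone, and with all 39 libraries the number was 4 without W5A replicate 2 or CUP1_WT replicate 2. DMC1, the meiotic recombinase, had 2868, 2281 and 2212 CPM in W5A, against 2555, 2719 and 3119 CPM in CUP1_WT (log2 -0.19, SE 0.32, adjusted p = 0.663). HOP1, an axis protein of meiotic chromosomes, had 1357, 1340 and 1425 CPM in W5A, against 1378, 1710 and 1668 CPM in CUP1_WT (log2 -0.20, SE 0.30, adjusted p = 0.625). For both genes the strains overlapped. REC8, the meiotic cohesin kleisin, likewise did not pass the test (log2 -0.16). Larger differences that were not called included ZIP1 (log2 -0.73) and MSH4 (log2 -0.62). Of the 44 genes, 42 had a negative log2 difference and 2 a positive one, against 2761 negative and 3079 positive among all 5840 genes. The mean log2 CPM of the list was 7.94, 7.81 and 7.87 in W5A, against 8.22, 8.47 and 8.34 in CUP1_WT, without overlap. MAM1, the monopolin subunit that belongs to the list but acts at the first division, fell furthest (log2 -2.60), and RAD52, a recombination mediator, fell by 0.68 on the log2 scale.

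IME1, the master regulator of meiotic entry, had 2892, 3204 and 3333 CPM in W5A, against 3344, 4337 and 3267 CPM in CUP1_WT (log2 -0.21, SE 0.25, adjusted p = 0.539), and the strains overlapped. IME2, the kinase that acts after Ime1, had 2426, 2071 and 2404 CPM in W5A, against 5932, 6566 and 4349 CPM in CUP1_WT (log2 -1.27, SE 0.36, adjusted p = 0.00726), with no overlap. Of 16 regulators of meiotic entry, 5 fell and 3 rose, against 18.1% and 20.9% of all genes, and 2 fell when the 6 libraries were fitted alone. The falls included RIM15 (log2 -0.76), a kinase of nutrient signalling, and the rises included GPA2 (log2 0.76), a G-protein subunit that senses glucose. Without W5A replicate 2, CUP1_WT replicate 1 or CUP1_WT replicate 2, 3 of these genes were called lower, and without CUP1_WT replicate 1, 1 was called higher. RIM4, an RNA-binding repressor of meiotic translation, was lower near the threshold (log2 -0.55, SE 0.21, adjusted p = 0.0397), and leaving out any library but CUP1_WT replicate 3 ended its call. Of 7 genes of the m6A writer complex and reader, 1 fell and none rose, which is no more than the shares of all genes. The fall was SLZ1, a regulatory subunit, with 1283, 1053 and 1013 CPM in W5A, against 2523, 2843 and 1958 CPM in CUP1_WT (log2 -1.12, SE 0.36, adjusted p = 0.0147), a call lost without CUP1_WT replicate 2. IME4, the catalytic subunit, had 229, 209 and 289 CPM in W5A, against 246, 302 and 281 CPM in CUP1_WT (log2 -0.20) and did not pass the test, nor did MUM2, VIR1, KAR4 or DYN2.

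**Figure D2:**
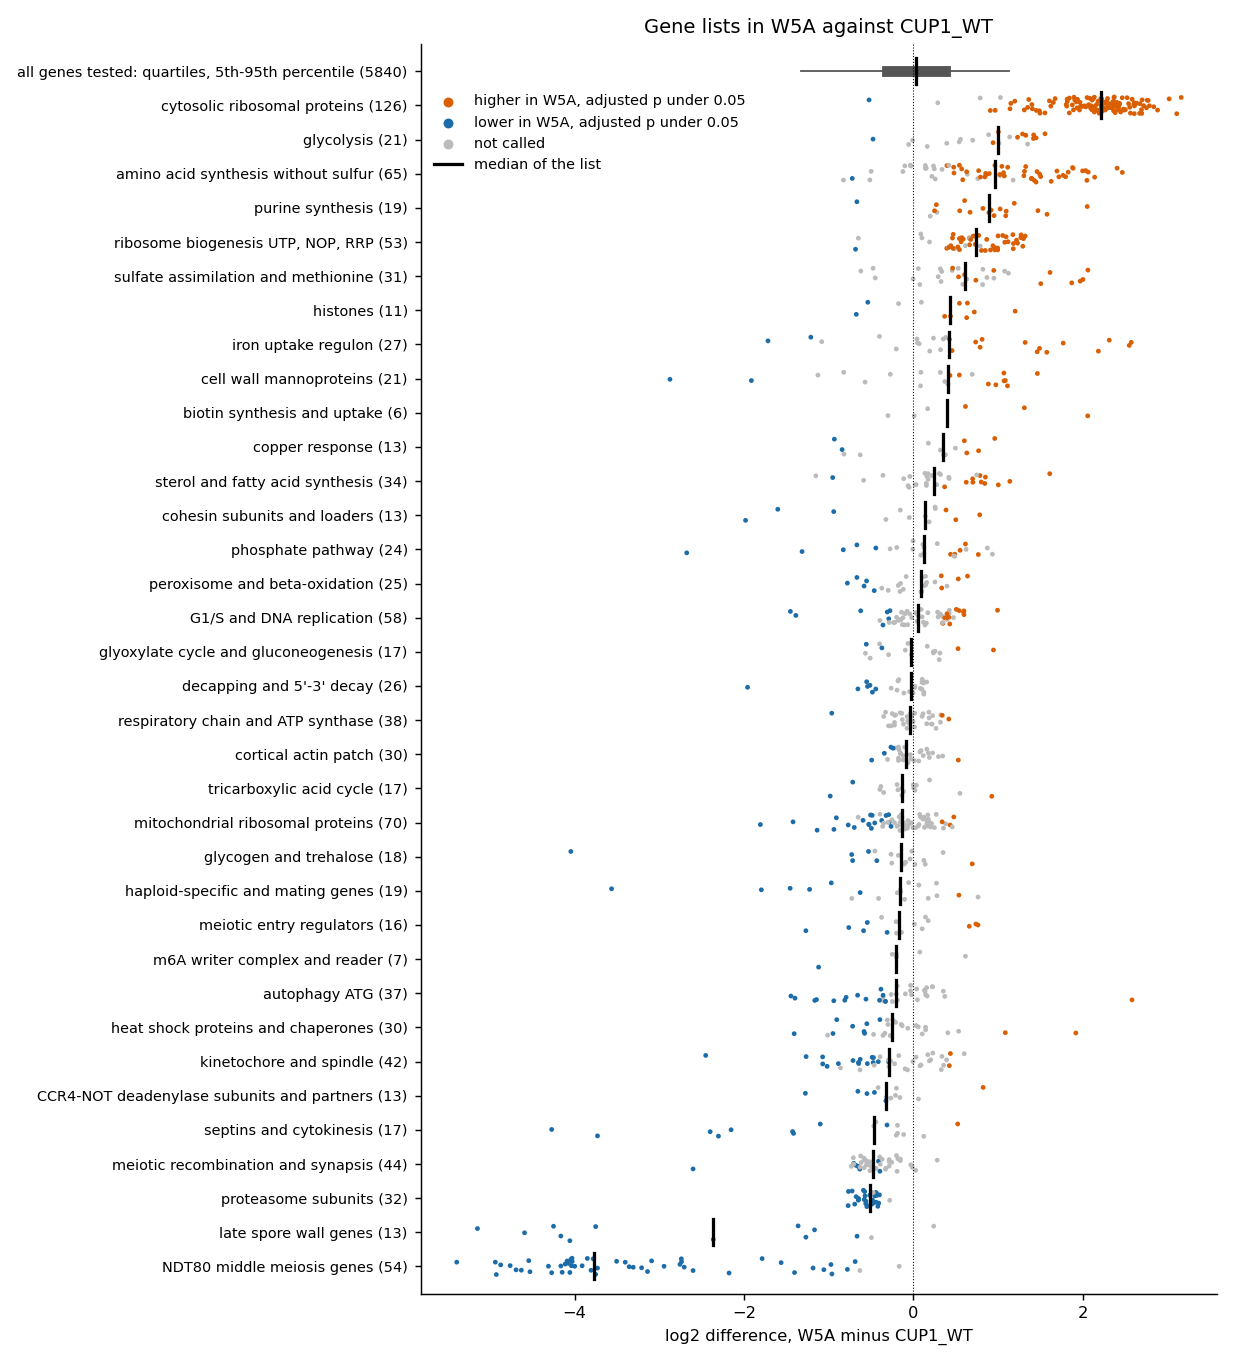
Log2 difference, W5A minus CUP1_WT, for each tested member of 35 gene lists (rows, number tested in brackets) and, in the top row, all genes. Orange points were called higher in W5A, blue points lower and grey points not called, with the median of each row as a bar. Ribosomal protein genes lie at the right with a median of 2.22 and middle meiosis genes at the left with a median of -3.77.

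Genes of the cytosolic ribosome rose together. Of 126 tested, 122 rose and 1 fell, against 20.9% of all genes higher and 18.1% lower. The median log2 difference was 2.22. RPS3, of the small subunit, had 785, 645 and 383 CPM in W5A, against 91.5, 53.9 and 127 CPM in CUP1_WT (log2 2.76, SE 0.50, adjusted p = 2.50e-04). RPL1B, of the large subunit, had the greatest rise among the genes called, with 342, 273 and 188 CPM in W5A, against 35.5, 15.2 and 45.1 CPM in CUP1_WT (log2 3.16, SE 0.57, adjusted p = 2.59e-04). RPS0A had 341, 283 and 189 CPM in W5A, against 50.3, 51.9 and 69.7 CPM in CUP1_WT (log2 2.22, SE 0.33, adjusted p = 8.87e-05), and RPL19A had 492, 429.6 and 291 CPM in W5A, against 93.0, 84.3 and 104 CPM in CUP1_WT (log2 2.08, SE 0.28, adjusted p = 3.63e-05). No W5A library overlapped CUP1_WT for these 4 genes, and replicate 3 was the lowest of W5A each time. The fall was that of RPL15B, with 66.9, 57.2 and 64.1 CPM in W5A, against 91.2, 86.4 and 92.8 CPM in CUP1_WT (log2 -0.52, SE 0.13, adjusted p = 0.00349), and the genes not called were RPS28B, RPL29 and RPL18B, with log2 1.03, 0.79 and 0.29. Many ribosomal protein genes are near-identical pairs, and reads could be split between the copies, so values of single copies are uncertain. Together these genes took 3.50, 3.11 and 1.96% of the counts of the W5A libraries, against 0.523, 0.452 and 0.827% in CUP1_WT. With any library left out, 121 to 124 were called higher.

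Genes of ribosome assembly, taken as those with UTP, NOP and RRP names, rose less. Of 53, 43 rose and 1 fell (median log2 0.73), against 20.9% of all genes higher and 18.1% lower. NOP2, a methyltransferase of the large subunit rRNA, had 226, 256 and 163 CPM in W5A, against 74.7, 91.8 and 118 CPM in CUP1_WT (log2 1.18, SE 0.22, adjusted p = 3.56e-04). UTP10, of the small subunit processome, had 101, 107 and 66.4 CPM in W5A, against 32.2, 34.9 and 45.5 CPM in CUP1_WT (log2 1.27, SE 0.27, adjusted p = 9.41e-04), and RRP6, an exonuclease of the nuclear exosome, rose by a log2 of 1.00. The fall was RRP43, an exosome subunit (log2 -0.68), a call lost without W5A replicate 1 or CUP1_WT replicate 1, and without CUP1_WT replicate 3 the falls numbered 2. The count of rises was 26 without W5A replicate 2, 19 without CUP1_WT replicate 1 and 27 without CUP1_WT replicate 2. The PAC element of these genes, GATGAG, stood in the 250 bases before 81.1% of them, 29.6% of all genes called higher in W5A and 16.5% of all genes. For cytosolic ribosomal protein genes the share was 11.1%. Matches for both examples are printed as above, 94 and 104 bases before the start codons, at chrX:217394-217419 (minus strand) and chrXIV:510420-510445 (plus strand).
UTP10: ttcagttagcGATGAGctagatattt
NOP2: ataagtttaaGATGAGctgagctgca
NOP2 holds 3 matches in all, of which the plus-strand match is shown.

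Biosynthetic genes rose as well. For the lists that follow here, the shares over all genes were 20.9% higher and 18.1% lower. Of 65 genes of amino acid synthesis outside the sulfur pathway, 44 rose and 1 fell (median log2 0.96). ARO4, an entry enzyme of aromatic amino acid synthesis, had 536, 492 and 266 CPM in W5A, against 105, 98.0 and 164 CPM in CUP1_WT (log2 1.79, SE 0.30, adjusted p = 1.43e-04). ILV5, of branched-chain synthesis, had 3037, 3269 and 1958 CPM in W5A, against 894, 640.0 and 866 CPM in CUP1_WT (log2 1.76, SE 0.31, adjusted p = 2.11e-04). The fall was TYR1, of tyrosine synthesis (log2 -0.72), and without W5A replicate 3 or CUP1_WT replicate 3 the falls numbered 2. The Gcn4 site TGACTCA stood before 35.4% of the list, 4.17% of all genes called higher in W5A and 2.25% of all genes. GCN4 itself, the activator of these genes, was higher near the threshold, with 3685, 2984 and 2425 CPM in W5A, against 2118, 1830 and 2230 CPM in CUP1_WT (log2 0.54, SE 0.20, adjusted p = 0.0327), and its call was lost without replicate 1 or 2 of either strain. Of 19 genes of purine synthesis, 16 rose and 1, the transcription factor gene PHO2, fell (median log2 0.89), a call lost without CUP1_WT replicate 1. The number called higher was 10 without W5A replicate 1, W5A replicate 2 or CUP1_WT replicate 1 and 9 without CUP1_WT replicate 2. ADE12, of the step to AMP, had 327, 287 and 155 CPM in W5A, against 90.8, 59.6 and 102 CPM in CUP1_WT (log2 1.58, SE 0.37, adjusted p = 0.00173), and IMD3, of the step to GMP, rose by a log2 of 1.09.

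Among 31 genes of sulfate assimilation and methionine, 11 rose and none fell (median log2 0.60), against 20.9% of all genes higher and 18.1% lower. MET6, methionine synthase, had 2027, 2141 and 1087 CPM in W5A, against 420.1, 349.6 and 502 CPM in CUP1_WT (log2 2.00, SE 0.53, adjusted p = 0.00446), and SAM1, which makes S-adenosylmethionine, had 230.0, 276 and 113 CPM in W5A, against 48.2, 35.8 and 69.2 CPM in CUP1_WT (log2 1.97, SE 0.51, adjusted p = 0.00407). SAM3, its transporter, rose by a log2 of 1.61. The count of rises was 6 without W5A replicate 1, 5 without W5A replicate 2 and 4 without CUP1_WT replicate 1 or CUP1_WT replicate 2. Of 21 genes of glycolysis and fermentation, 9 rose and 1 fell (median log2 1.00). ADH2, the alcohol dehydrogenase that is repressed by glucose, had 4349, 4093 and 5228 CPM in W5A, against 1943, 1459 and 2087 CPM in CUP1_WT (log2 1.33, SE 0.20, adjusted p = 9.53e-05), and the minor pyruvate kinase gene PYK2 was the fall (log2 -0.48). The count rested on single libraries, since the number called higher was 3 without W5A replicate 1 or W5A replicate 2 and 1 without CUP1_WT replicate 2.

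Of 27 genes of the iron regulon, 14 rose and 2 fell, against 20.9% of all genes higher and 18.1% lower. With any library left out, 11 to 15 rose. FET3, the copper-dependent ferroxidase of iron uptake, had 1417, 1623 and 628 CPM in W5A, against 246, 106 and 279.7 CPM in CUP1_WT (log2 2.55, SE 0.51, adjusted p = 5.38e-04). FTR1, the permease that works with Fet3, had 1552, 1608 and 569.8 CPM in W5A, against 267, 159.8 and 357 CPM in CUP1_WT (log2 2.18, SE 0.41, adjusted p = 3.29e-04). FIT2, a cell wall protein that retains siderophore iron, rose by a log2 of 2.57, and ARN1, a siderophore transporter, by 1.46. The falls were CCC1, the vacuolar iron importer (log2 -1.72), and FTH1, a vacuolar iron exporter (log2 -1.21), both lost without CUP1_WT replicate 1, and FTH1 also without W5A replicate 2 or 3 or CUP1_WT replicate 2. Without CUP1_WT replicate 3 the iron-list falls numbered 4. Of 13 copper-response genes, 4 rose and 2 fell, against 20.9% of all genes higher and 18.1% lower. CTR1 (log2 -0.84) and CTR3 (log2 -0.93), the copper importers, were the falls, CTR1 lost without CUP1_WT replicate 1 and CTR3 without W5A replicate 2. Among these rises were CTR2, a vacuolar copper transporter (log2 0.96), and CUP2, the copper-sensing activator of CUP1 (log2 0.60), the second lost without CUP1_WT replicate 1. Without W5A replicate 1 the copper-list rises numbered 2, without CUP1_WT replicate 1 they numbered 1, and without W5A replicate 2 or CUP1_WT replicate 1 the falls numbered 1.

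VHT1, the biotin transporter, had 445, 519.9 and 300.2 CPM in W5A, against 109, 79.9 and 111 CPM in CUP1_WT (log2 2.06, SE 0.48, adjusted p = 0.00169), and 3 of 6 biotin genes rose, 1 of them without CUP1_WT replicate 1. For this and the lists that follow, the shares over all genes were 20.9% higher and 18.1% lower. Of 34 sterol and fatty acid genes, 11 rose and 1 fell, and ERG20, the farnesyl pyrophosphate synthase, rose by a log2 of 1.14. The sterol-list rises numbered 6 without CUP1_WT replicate 1 and 4 without CUP1_WT replicate 2, and the falls numbered 2 without W5A replicate 1, 0 without W5A replicate 2, W5A replicate 3 or CUP1_WT replicate 1 and 3 without CUP1_WT replicate 3. Of 21 cell wall mannoprotein genes, 9 rose and 2 fell, and the rises numbered 5 without W5A replicate 2, CUP1_WT replicate 1 or CUP1_WT replicate 2. CCW12 rose by a log2 of 1.08 and TIP1 by 1.07, while TIR2 fell (log2 -1.91), the only fall called without CUP1_WT replicate 1. Of 11 histone genes, 7 rose and 2 fell, with rises in HTA2 (log2 1.20) and HTB1 (log2 0.64) and falls in the linker and variant genes HHO1 (log2 -0.68) and HTZ1 (log2 -0.54). The histone rises numbered 4 without W5A replicate 1 or CUP1_WT replicate 2 and 3 without CUP1_WT replicate 1, and the falls numbered 1 without W5A replicate 2 and 0 without CUP1_WT replicate 1, with 4 rises and 0 falls when the 6 libraries were fitted alone. SSB1, a ribosome-associated Hsp70, had 799, 770.0 and 375 CPM in W5A, against 153, 129 and 217 CPM in CUP1_WT (log2 1.92, SE 0.41, adjusted p = 8.59e-04), and its copy SSB2 rose by 1.08. In the list of 30 heat shock genes these were the 2 rises, and 8 genes fell, against 18.1% of all genes lower, among them HSC82, an Hsp90 (log2 -0.95). The heat shock falls numbered 4 without W5A replicate 1, W5A replicate 3 or CUP1_WT replicate 1, 5 without W5A replicate 2 and 2 without CUP1_WT replicate 2.

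Proteasome genes fell together by a small amount. Of 32 subunit genes, 30 fell and none rose, against 18.1% of all genes lower and 20.9% higher. The median log2 difference was -0.51, with a range of -0.77 to -0.28. RPN2, of the regulatory particle, had 1035, 964 and 938 CPM in W5A, against 1726, 1894 and 1424 CPM in CUP1_WT (log2 -0.77, SE 0.16, adjusted p = 6.90e-04). PRE4, of the catalytic core, had 497, 403 and 388 CPM in W5A, against 700.4, 766 and 654 CPM in CUP1_WT (log2 -0.72, SE 0.17, adjusted p = 0.00163). The genes not called were RPN13 (log2 -0.28) and PRE3 (log2 -0.48), and both were called in the blocked fit. The number called lower was 15 without W5A replicate 2 or W5A replicate 3, and 13 in a fit of the 6 libraries blocked by replicate number. The Rpn4 site of proteasome genes, GGTGGCA, stood before 84.4% of the list, 5.33% of all genes called lower in W5A and 2.5% of all genes. Examples are printed as above, 112 and 169 bases before the start codons, at chrIX:220803-220829 (minus strand) and chrIV:1261495-1261521 (plus strand).
RPN2: atttattttcGGTGGCAaaactggata
RPT3: ctgaaagtaaGGTGGCAaaatagtaaa
None of the 4 motifs contains another, and windows of different genes can overlap where genes are divergent.

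Among genes of mRNA turnover, 5 of 13 CCR4-NOT subunits and partners fell and 1 rose, 7 of 26 decapping and decay genes fell and none rose, against 18.1% of all genes lower and 20.9% higher. The medians were -0.32 and -0.03 on the log2 scale, and when the 6 libraries were fitted alone the falls numbered 1 and 3. MPT5, a Puf-family RNA-binding protein that recruits the deadenylase, had 104, 127 and 119 CPM in W5A, against 361, 391 and 157 CPM in CUP1_WT (log2 -1.28, SE 0.29, adjusted p = 0.00147). EDC2, an activator of decapping, had 92.1, 78.7 and 65.5 CPM in W5A, against 404, 386 and 179 CPM in CUP1_WT (log2 -1.96, SE 0.45, adjusted p = 0.00173). The catalytic deadenylase genes CCR4 (log2 0.06) and POP2 (log2 -0.16) did not pass the test. The CCR4-NOT falls numbered 1 without W5A replicate 1 and 2 without CUP1_WT replicate 2, where the rise, CAF16, was not called either, and the decapping falls 4 without CUP1_WT replicate 2. Of 37 autophagy genes 14 fell, 9 when the 6 libraries were fitted alone, among them ATG32, the receptor for mitochondria (log2 -1.40), and 1 rose, ATG41 (log2 2.58). Without CUP1_WT replicate 1, 8 autophagy genes were called lower, and without CUP1_WT replicate 3, 2 were called higher.

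Respiratory genes mostly did not pass the test. Of 38 genes of the respiratory chain and ATP synthase, 2 rose and 1 fell, and of 17 genes of the tricarboxylic acid cycle, 1 rose and 2 fell, against 20.9% of all genes higher and 18.1% lower. The respiratory rises numbered 1 without W5A replicate 1, 0 without CUP1_WT replicate 1 or CUP1_WT replicate 2 and 4 without CUP1_WT replicate 3, and the fall was not called without W5A replicate 2 or CUP1_WT replicate 1. Without CUP1_WT replicate 3, 4 genes of the cycle were called lower. KGD2, of the oxoglutarate dehydrogenase, fell by 0.98 on the log2 scale and CIT3, the minor mitochondrial citrate synthase, rose by a log2 of 0.92. Of 70 mitochondrial ribosomal protein genes, 19 fell, against 18.1% of all genes lower, and 3 rose (median log2 -0.14), set against 122 rises of 126 for the cytosolic ribosome. The mitochondrial falls numbered 12 without W5A replicate 2 and 8 without CUP1_WT replicate 1, with 9 when the 6 libraries were fitted alone, and the rises numbered 1 without W5A replicate 1 or CUP1_WT replicate 1, 0 without CUP1_WT replicate 2 and 5 without CUP1_WT replicate 3. Of 58 genes of G1/S and DNA replication, 13 rose, near the 20.9% of all genes called higher, and 7 fell, against 18.1% of all genes, among them ORC1 (log2 -1.45), the largest subunit of the origin recognition complex. When the 6 libraries were fitted alone, 7 rose and 2 fell. The G1/S rises numbered 8 without W5A replicate 2 or W5A replicate 3, 3 without CUP1_WT replicate 1 and 4 without CUP1_WT replicate 2, and the falls 3 without W5A replicate 1, W5A replicate 2 or CUP1_WT replicate 1 and 4 without W5A replicate 3 or CUP1_WT replicate 2.

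The levels of whole lists were set beside the pho92_null strain, which lacks PHO92 and carries no construct. The mean log2 CPM of the middle genes was 6.52, 5.81 and 5.28 in the W5A libraries, 7.72, 6.38 and 5.40 in pho92_null and 10.02, 9.37 and 8.01 in CUP1_WT. Every CUP1_WT library was thus above every library of the other strains. For the cytosolic ribosomal proteins the mean was 7.51, 7.30 and 6.56 in W5A, 5.52, 6.82 and 5.68 in pho92_null and 5.03, 4.66 and 5.33 in CUP1_WT, so every pho92_null library was above every CUP1_WT library, and pho92_null replicate 2 lay within the range of W5A. For the proteasome it was 8.94, 8.62 and 8.58 in W5A, 9.09, 8.51 and 8.48 in pho92_null and 9.24, 9.30 and 9.22 in CUP1_WT. NDT80 had 514, 154 and 148 CPM in pho92_null, RPS3 125, 408 and 149.8 CPM and SPS4 1910, 639 and 102 CPM. W5A against pho92_null gave 851 called genes (14.6%), 453 higher (7.76%) and 398 lower (6.82%), and it shares the W5A libraries with the main comparison. NOP2 was among the genes higher in W5A than in pho92_null, with 226, 256 and 163 CPM in W5A, against 69.3, 134 and 77.0 CPM in pho92_null (log2 1.24, adjusted p = 3.43e-04).

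**Figure D3:**
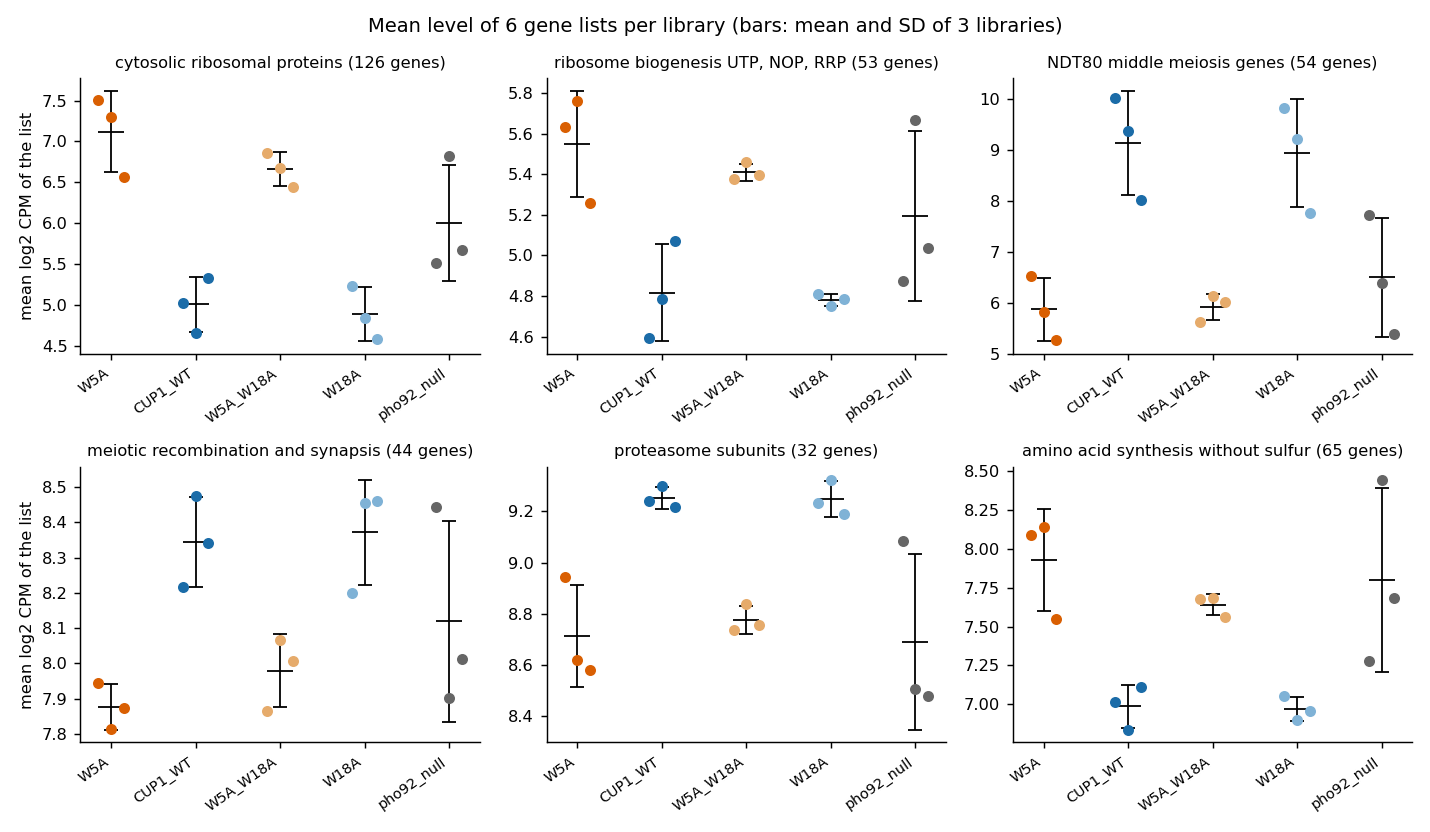
Mean log2 CPM of 6 gene lists in each library of W5A, CUP1_WT, W5A_W18A, W18A and pho92_null, each panel on its own range. Points are libraries in order of replicate number, and bars give the mean and SD of 3 libraries. W5A and W5A_W18A lie on one side of CUP1_WT and W18A in all 6 panels, and pho92_null has the wider spread in the middle gene panel, with an SD of 1.17 against 0.62 in W5A.

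The effect of the endogenous gene gave a further reading of the same genes, since the WT and pho92_null libraries are in neither group of the main comparison. WT differed from pho92_null at 1939 genes (33.2%), 867 higher in WT (14.8%) and 1072 lower (18.4%). Of the 1072 genes lower in WT, 727 rose in W5A (67.8%, against 20.9% of all genes) and 3 fell, with a median log2 difference of 0.57. Of the 866 genes higher in WT, without PHO92 itself, none rose in W5A and 710 fell (82.0%, against 18.1% of all genes), with a median of -0.76. Leaving ribosomal protein and ribosome assembly genes out of the first list left 944 genes, of which 600 rose. Leaving middle and late meiosis genes out of the second left 813, of which 657 fell. Of the first list, 450 rose without CUP1_WT replicate 1 and 478 without CUP1_WT replicate 2.

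**Figure D4:**
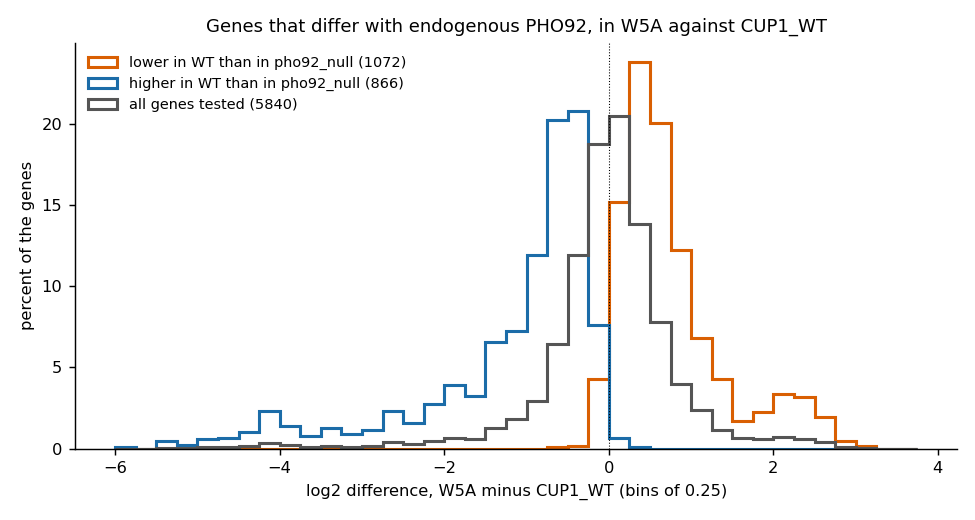
Distribution of the log2 difference, W5A minus CUP1_WT, in bins of 0.25, as percent of the genes of each set. The sets are 1072 genes lower in WT than in pho92_null (orange), 866 genes higher in WT (blue) and all 5840 genes tested (grey), with medians of 0.57, -0.76 and 0.03.

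The same substitution was read a second time in Pho92 that also carries W18A, as W5A_W18A against W18A, with 3 libraries each and none in common with the first comparison. Here 1745 genes were called (29.9%), 902 higher (15.4%) and 843 lower (14.4%). NDT80 had 134, 166 and 166 CPM in W5A_W18A, against 1449, 1145 and 612 CPM in W18A (log2 -2.70, SE 0.63, adjusted p = 0.00359). SPS4 had 139, 329 and 296 CPM in W5A_W18A, against 11980, 6490 and 1844 CPM in W18A (log2 -4.46, SE 1.32, adjusted p = 0.0139). RPS3 had 468, 385 and 326 CPM in W5A_W18A, against 107, 70.3 and 60.1 CPM in W18A (log2 2.34, SE 0.50, adjusted p = 0.00189), and RPN2 had 953, 1153 and 1044 CPM in W5A_W18A, against 1602, 1762 and 1616 CPM in W18A (log2 -0.66, SE 0.16, adjusted p = 0.00414). Of the 2277 genes called in W5A against CUP1_WT, 2275 had the same sign and 1645 were also called, which is 72.2% of the first set and 94.3% of the second. The genes of opposite sign were Unit14150 and YKL131W. Over all 5840 genes 92% had the same sign, and the slope of the second difference on the first was 0.878 (Pearson r = 0.979, Spearman rho = 0.953, across genes, which are not independent replicates). The median was -3.48 for the middle genes, 1.88 for the cytosolic ribosomal proteins and -0.47 for the proteasome, against -3.77, 2.22 and -0.51 in the first comparison.

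No gene passed an interaction test of the difference between the backgrounds in limma (smallest adjusted p = 1), 8 genes had an unadjusted p under 0.05, and in the fit blocked by replicate number no gene passed either (smallest adjusted p = 0.587). Missing this threshold does not show that the differences were equal. If no gene differed, a calibrated test would put a share near 0.05 of the 5840 genes under an unadjusted p of 0.05. The 8 found are far fewer, so the test was too strict here to measure agreement between the backgrounds. Same-numbered W18A and CUP1_WT libraries deviated together from their strain means for replicates 1 and 3 (correlation 0.83 and 0.741). The correlation for replicate 2 was 0.125, within the range across numbers (-0.835 to 0.263). The spread between replicate numbers is thus partly common to the 2 comparisons. The second comparison rested more on single libraries, with 1079 genes called without W5A_W18A replicate 1, 734 without W18A replicate 1 and 898 without W18A replicate 2. PHO92 had 15180, 16630 and 12750 CPM in W5A_W18A, against 8454, 9933 and 12140 CPM in W18A (log2 0.55, SE 0.44, adjusted p = 0.352). Every W5A_W18A library was above every W18A library, and the SE again includes the spread of the pho92_null libraries.

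**Figure D5:**
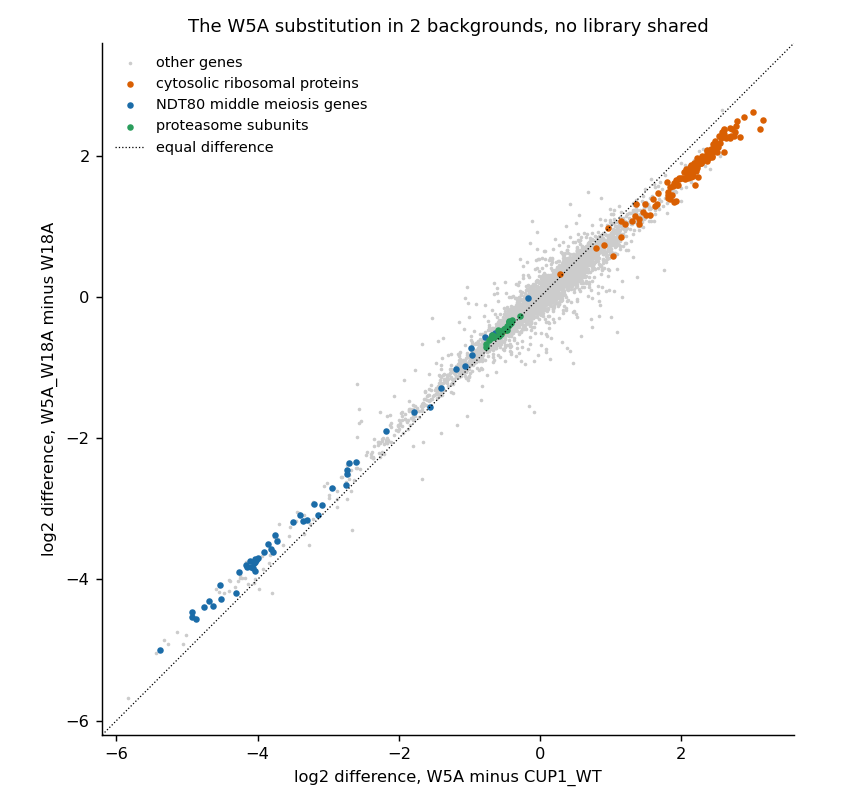
Log2 difference W5A_W18A minus W18A (vertical) against W5A minus CUP1_WT (horizontal) for 5840 genes, with ribosomal protein genes in orange, middle meiosis genes in blue and proteasome genes in green. The dotted line marks equal differences. The middle genes lie at the lower left and the ribosomal protein genes at the upper right, around a slope of 0.878.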

How the data were processed

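The deposited table holds whole-number counts per feature, 39 libraries of 13 strains, with lines of the authors' annotation above the features. The submitters' processing notes name STAR (2.7.10a), RSEM (1.3.1) and DESeq2 (1.48.1). The genome build, the annotation and the strand setting in counting are not given in the sources used here. Annotation lines share the count columns, so only the whole-number counts below them were used, on a log2 CPM scale and not in a count model. From 6186 features, 5840 were kept (at least 10 counts, scaled to library size, in at least 3 libraries, and at least 15 counts in all), library sizes were adjusted by TMM (trimmed mean of M-values), and log2 CPM with a prior count of 2 was fitted by strain with limma (3.58.1, R 4.3.3) across all 39 libraries. Adjusted p-values are Benjamini-Hochberg over all 5840 genes, with the threshold for a call at 0.05. This was the test in place of a count model. It was tried on simulated counts that had the same spread setting for every gene and no replicate effect. That trial therefore does not cover the replicate deviations shared between strains in these libraries. Scores and counts on the annotation lines were not used. Replicate numbers pair the W5A and CUP1_WT libraries: deviations from the strain means correlated at 0.157 to 0.367 within numbers and at -0.212 to 0.0473 across them. The numbers did not pair W5A_W18A with W18A (-0.102 to -0.075). Alternatives were other size factors, voom weights, no filter, another prior count, the strains compared alone, the replicate block, and each library left out.

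Genes were named as the 10 greatest rises and falls called in both the unblocked and the blocked fit, reaching a mean of 50 CPM in either strain and moving alike in each of the 3 pairs, the members of each list with the smallest adjusted p in each direction, and all members of lists with 12 or fewer tested genes. Not every gene chosen by this rule is reported here. The comparison and the 35 gene lists were chosen with earlier results of these data known. Some memberships were corrected after values were seen (RPP1, RPN4, RPN14 and MRP8 left out), and NDT80, SUM1, AMA1, GCN4, SMK1 and other members outside the rule were named after values were seen. Upstream windows and the PHO92 codons come from the RefSeq genome R64, in which 5630 features match a locus tag.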

Additional observations from a re-analysis of the deposited data

How the results depend on the processing

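None of the 226 named genes that were called changed sign under any alternative. Values near 0 did: the median over all genes was -0.02 without CUP1_WT replicate 1 and -0.01 without CUP1_WT replicate 2, and SUM1 ranged over the alternatives between log2 -0.20 and 0.07 and CCR4 between -0.03 and 0.13, neither called. Leaving out 1 library gave 1251 to 2607 called genes in W5A against CUP1_WT, 647 to 1289 higher and 604 to 1318 lower, and the lowest value was without CUP1_WT replicate 1 each time. In W5A_W18A against W18A the range was 734 to 1952. Of the genes lower in WT than in pho92_null, 450 to 755 rose, and of those higher in WT, 476 to 773 fell. With the 6 libraries alone, 702 genes were called lower, and PHO92 passed the test (log2 0.62, adjusted p = 0.0282). With those 6 libraries and the replicate block, an alternative chosen after seeing the data, 1205 genes were called, 707 higher and 498 lower, and the WT lists gave 459 rises and 399 falls. PHO92 did not pass in that fit (log2 0.62, adjusted p = 0.0569). In that fit 121 ribosomal protein, 19 ribosome assembly and 13 proteasome genes kept their direction and were called, with 50 middle genes. The cause was not tested. The replicate block in the fit of all 39 libraries gave 2767 called genes, 1464 higher and 1303 lower, 2342 in W5A_W18A against W18A, 790 and 761 in the WT lists, and log2 0.61 for PHO92 (adjusted p = 0.252). With it 124 ribosomal protein and 32 proteasome genes were called. Of the 226 named genes, 226 stayed called with the block, 222 with the other size factors, 223 with voom weights, 221 without the filter, 182 with the 6 libraries alone, 162 without CUP1_WT replicate 1 and 151 with the 6 libraries and the block. With 3 libraries per strain, precision was set by the spread between libraries and not by depth.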

Other observations

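Some genes outside every list rose by more than the median of the ribosomal protein genes, and they were chosen after their values were seen. HXT7, a high-affinity hexose transporter nearly identical to HXT6, had 1237, 989 and 1188 CPM in W5A, against 213, 148 and 238 CPM in CUP1_WT (log2 2.53, SE 0.47, adjusted p = 3.30e-04). ZRT1, the high-affinity zinc transporter, had 577, 778 and 450.2 CPM in W5A, against 131, 77.0 and 147 CPM in CUP1_WT (log2 2.36, SE 0.47, adjusted p = 5.51e-04). ALD5, a mitochondrial aldehyde dehydrogenase, had 525, 597 and 301 CPM in W5A, against 87.8, 70.4 and 118 CPM in CUP1_WT (log2 2.34, SE 0.45, adjusted p = 3.82e-04), and STM1, a protein bound to ribosomes, had 324, 336 and 179 CPM in W5A, against 58.6, 45.1 and 68.4 CPM in CUP1_WT (log2 2.25, SE 0.35, adjusted p = 1.04e-04). No W5A library overlapped CUP1_WT for these genes. Among the greatest falls, SPR2, a gene regulated in sporulation, had 107, 35.2 and 6.29 CPM in W5A, against 3720, 1439 and 371 CPM in CUP1_WT (log2 -5.44, SE 1.50, adjusted p = 0.00585).

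Of 19 haploid-specific and mating genes, 6 were lower in W5A and 1 higher, against 18.1% and 20.9% of all genes, with 2 called lower without CUP1_WT replicate 1. FAR1, which arrests the cell cycle for mating, had 10.7, 6.83 and 7.79 CPM in W5A, against 33.9, 22.0 and 16.1 CPM in CUP1_WT (log2 -1.46, SE 0.27, adjusted p = 3.30e-04). STE18, a G-protein subunit of the pheromone pathway, had 4.24, 2.20 and 0.941 CPM in W5A, against 78.5, 28.1 and 7.59 CPM in CUP1_WT (log2 -3.56), and its call was lost without CUP1_WT replicate 1. Of 24 phosphate pathway genes, 5 rose and 5 fell, about the shares over all genes (20.9% and 18.1%), with PHO90, a low-affinity phosphate transporter, higher (log2 0.61) and PHM6 lower (log2 -2.68). The phosphate rises numbered 2 without W5A replicate 2 and 3 without CUP1_WT replicate 1 or CUP1_WT replicate 2, and the falls numbered 2 without CUP1_WT replicate 1. ACS2, the acetyl-CoA synthetase of growth on glucose, rose by a log2 of 0.94, and PEX11, of peroxisome division, by 0.64.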
